A study of Homo sapiens with 12 samples.

Results

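The Hippo kinase cascade is described here by 10 genes, namely the Hippo kinases STK4 (MST1) and STK3 (MST2) with their scaffold SAV1, the LATS kinases LATS1 and LATS2 with their activators MOB1A and MOB1B, and the upstream regulators NF2, RASSF1 and MAP4K4. The genes were taken by symbol from the deposited array table, and each of the 10 had 1 probe set that names a single gene. They are 10 of the 22413 genes measured. In this cascade STK3 and STK4, bound to SAV1, phosphorylate and activate LATS1 and LATS2, which then phosphorylate the co-activators YAP and TAZ and keep them out of the nucleus. NF2 (merlin) and RASSF1 act upstream of the kinases, and MAP4K4 can phosphorylate the LATS kinases in parallel to STK3 and STK4. In pancreatic ductal adenocarcinoma YAP is known as a driver of proliferation.

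The arrays compared SW1990 and PANC-1, both established human pancreatic ductal adenocarcinoma lines, after lipid-mediated transfection of a GLI1 cDNA plasmid or of an empty plasmid vector, and asked which mRNAs differ after GLI1 transfection. There were 12 arrays in 4 groups of 3, which are LIP, LIP-1 and LIP-2 of each line for the arrays labelled GLI1, a, b and c for the SW1990 arrays labelled control, and S10, S11 and S8 for the PANC-1 arrays labelled control. Whether the arrays within a group stem from different cultures is stated nowhere in the sources used here, so the p-values measure the spread between these arrays, which may be technical. The methods describe another maker's slides, dye and RNA kit than the labels and probe sets do, and in bulk RNA fewer cells of a kind and less RNA per cell cannot be told apart.

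The transfected gene ran against the labels. GLI1, a zinc finger transcription factor activated by Hedgehog signalling, read 6.999, 6.90 and 6.77 in the SW1990 arrays labelled GLI1 and 11.80, 11.81 and 11.76 in those labelled control (normalized log2 signal). In PANC-1 GLI1 read 7.76, 8.001 and 8.04 in the arrays labelled GLI1 and 11.51, 11.55 and 11.42 in those labelled control. Directions below therefore refer to the label of an array, and a difference is the mean of the arrays labelled GLI1 minus the mean of those labelled control.

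The keratins KRT8 and KRT18, markers of simple epithelium, lay between 10.94 and 12.49 in the 4 group means. KRT7 lay between 7.94 and 8.09, and KRT19, a keratin of duct cells, at 11.27 and 11.56 in SW1990 and at 8.22 and 8.82 in PANC-1. The epithelial adhesion genes EPCAM and CDH1 lay between 10.81 and 11.10 in the SW1990 group means and between 6.78 and 7.01 in those of PANC-1. PTPRC, the pan-leukocyte marker, LUM and DCN of fibroblasts and PECAM1 of endothelium stayed between 3.19 and 4.42 in all 4 groups. Other markers of these cell types read higher, CD3E and CD14 between 5.965 and 6.80 and CDH5 and VWF between 5.98 and 6.18. COL1A1 of fibroblasts lay between 7.67 and 9.49. The acinar markers lay between 5.29 and 7.07. Of the endocrine markers GCG lay between 3.57 and 3.75 and CHGA between 7.205 and 7.28. Of these and the other markers, KRT19 was higher by 0.60 (adjusted p = 0.0234), COL1A1 by 0.97 (adjusted p = 0.0357) and CD14 by 0.47 (adjusted p = 0.0184) in the PANC-1 arrays labelled GLI1, and PRSS1 was higher by 0.74 (adjusted p = 0.000107) in the SW1990 arrays labelled GLI1. Control array S8 of PANC-1 stood apart from the controls S10 and S11. The SD of its gene-wise difference from them was 0.341 and 0.329, against 0.154 between S10 and S11 and 0.260 to 0.305 between S8 and arrays labelled GLI1 of the same line. The median log2 signal of 20 interferon-stimulated genes was 9.38 in S8, 7.05 in S10, 6.52 in S11 and 6.05 to 6.32 in the PANC-1 arrays labelled GLI1. In SW1990 the same median was 10.66 to 10.72 in the 3 control arrays and 6.08 to 6.27 in the arrays labelled GLI1, with all 20 of these genes lower by the test below. The interferon-stimulated genes and the label therefore cannot be told apart in SW1990.

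Differences were tested with limma over all genes, and calls were made where the p-value, adjusted by the method of Benjamini and Hochberg, lay under 0.05. In SW1990, 2 of the 10 genes fell with the GLI1 label, where 9.39% of all genes were called lower, and 1 rose, where 9.70% were called higher. In PANC-1, 2 of the 10 fell, where 5.24% of all genes did, and none rose, where 4.40% did. RASSF1 fell in both lines, LATS1 was called in SW1990 alone and LATS2 in PANC-1 alone, and MAP4K4 rose in SW1990. The median difference of the 10 genes was -0.15 in SW1990 and -0.17 in PANC-1, beside 0.01 and -0.001 over all genes. The groups of 3 arrays did not overlap for 6 genes that were lower in SW1990, namely STK3, STK4, SAV1, LATS1, LATS2 and RASSF1, where 19.5% of all genes were so placed, and for 1 that was higher, MAP4K4, where 20.5% were. In PANC-1 the groups did not overlap for 4 genes, LATS2, MOB1B, RASSF1 and MAP4K4, where 22.5% of all genes did not overlap in either direction, and all 4 were lower, where 11.5% were. A two-sided exact permutation test of 3 arrays against 3 gave p = 0.1 for each of these genes, as it does for any groups that do not overlap. That is the smallest p that this design allows, so the test adds nothing to the non-overlap.

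**Figure D1:**
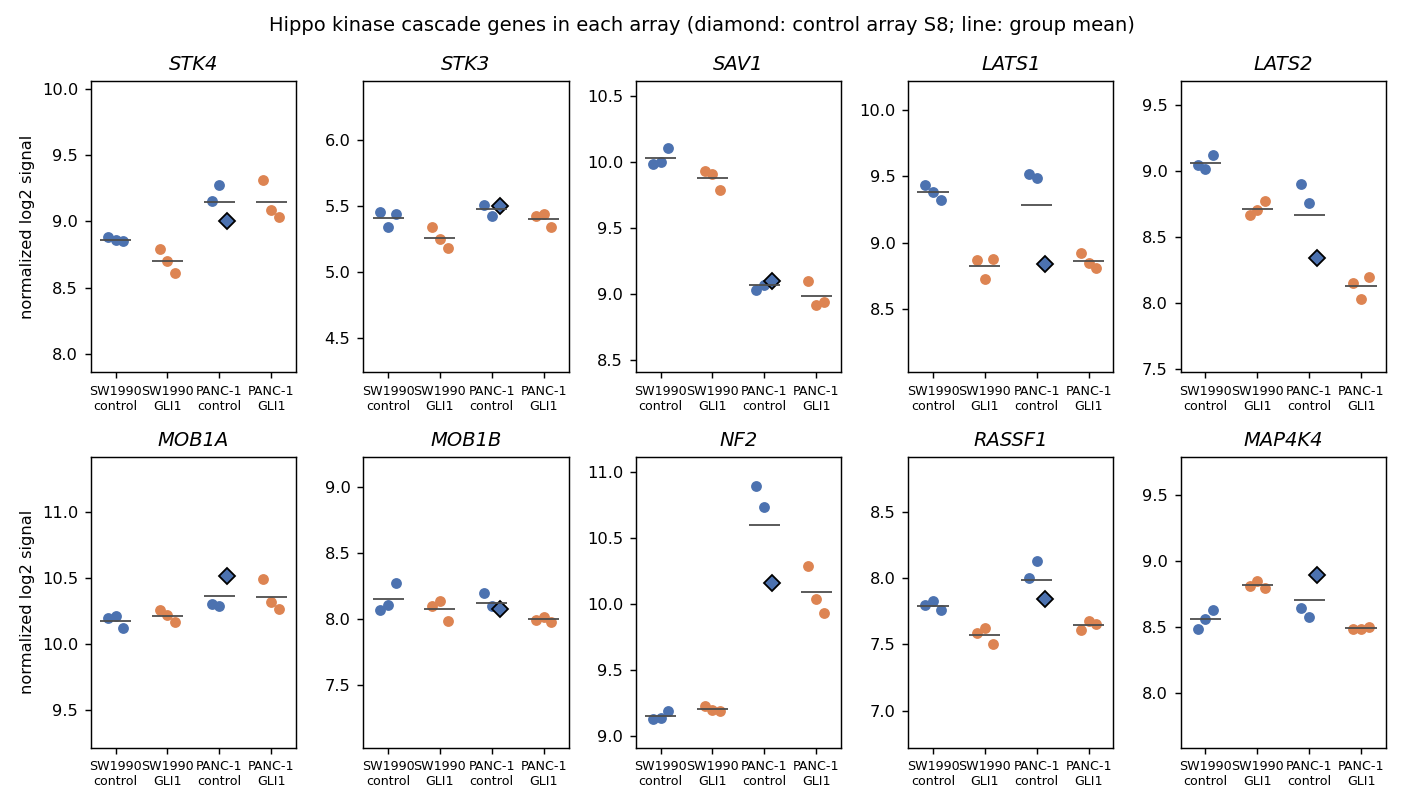
Normalized log2 signal of the 10 genes in each of the 12 arrays, with 1 panel per gene, blue for arrays labelled control, orange for arrays labelled GLI1, a diamond for PANC-1 control array S8 and a line at each group mean. All panels span the same number of log2 units; LATS1 is lower in the SW1990 arrays labelled GLI1, at 8.73 to 8.88 against 9.32 to 9.44, and S8 at 8.84 lies with the PANC-1 arrays labelled GLI1.

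STK4, the MST1 kinase that opens the cascade, passed the limma test in neither line. In SW1990 STK4 read 8.79, 8.70 and 8.61 in the arrays labelled GLI1 and 8.88, 8.86 and 8.85 in the control arrays a, b and c. All 3 arrays labelled GLI1 lay below all 3 control arrays, by little, and the control arrays spread far less than the others, with means of 8.70 ± 0.09 and 8.86 ± 0.02 (SD, n = 3). The SW1990 difference of STK4 was -0.16 (95% interval -0.35 to 0.03, adjusted p = 0.245). By the methods' t-test, 5 of the 10 genes, STK4 among them, had an unadjusted p under 0.05 in SW1990, where 7121 of the 22413 genes did. The p of STK4 in that test, adjusted over all genes, was 0.131. In PANC-1 STK4 read 9.31, 9.09 and 9.03 in the arrays labelled GLI1 and 9.16, 9.28 and 9.01 in S10, S11 and S8. The PANC-1 groups of STK4 overlapped almost wholly, with means of 9.14 ± 0.15 and 9.14 ± 0.14 (SD, n = 3). The PANC-1 difference was -0.001 (95% interval -0.19 to 0.19, adjusted p = 0.997), so a change beyond about 0.19 log2 units in either direction lies outside its interval. With array weights the PANC-1 difference was -0.15 and was called (adjusted p = 0.0438), where 9285 of the 22413 genes were. Without S8 it was -0.07 (adjusted p = 0.670) and was not called. The label effects of STK4 in the lines differed by 0.16, which did not pass the test (adjusted p = 0.584). Between the lines STK4 was lower in SW1990 than in PANC-1 by -0.36 over both labels (standard error 0.06, adjusted p = 0.000379), and this call held with each of the 12 arrays left out in turn.

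STK3, the MST2 kinase and the closest relative of STK4, gave the dimmest signal of the 10 probe sets. Its values of 5.18 to 5.51 lay under 5.96, the signal below which the dimmest 30% of genes fall. STK3 read 5.34, 5.25 and 5.18 in the SW1990 arrays labelled GLI1 against 5.45, 5.34 and 5.44 in a, b and c. The highest array labelled GLI1 and the lowest control array of SW1990 differed only in the third decimal, and the difference of -0.15 was not called (adjusted p = 0.0995). In PANC-1 STK3 read 5.42, 5.44 and 5.34 against 5.51, 5.42 and 5.50, groups that overlap. The PANC-1 difference of STK3 was -0.08 (adjusted p = 0.516), and the lines did not differ beyond the test either, by -0.11 (adjusted p = 0.0562).

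SAV1, the scaffold that holds the Hippo kinases to their substrates, separated the lines more than the labels did. SAV1 read 9.93, 9.91 and 9.79 in the SW1990 arrays labelled GLI1 and 9.99, 10.00 and 10.10 in a, b and c. In PANC-1 SAV1 read 9.10, 8.92 and 8.94 in the arrays labelled GLI1 and 9.03, 9.07 and 9.10 in S10, S11 and S8. Every SW1990 array lay above every PANC-1 array. The line difference of 0.93 (standard error 0.05, adjusted p = 1.211e-08) put SAV1 1.90-fold higher in SW1990. The label effect was -0.15 in SW1990 (adjusted p = 0.134) and -0.08 in PANC-1 (adjusted p = 0.528), neither of them called. With array weights the PANC-1 effect was -0.13 and was called (adjusted p = 0.0291), where 9285 of the 22413 genes were.

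LATS1, one of the pair of kinases that phosphorylate YAP and TAZ directly, had the widest label difference among the 10 genes in SW1990. LATS1 read 8.87, 8.73 and 8.88 in the SW1990 arrays labelled GLI1 and 9.44, 9.38 and 9.32 in a, b and c. The groups stood well apart, with means of 8.82 ± 0.09 and 9.38 ± 0.06 (SD, n = 3). LATS1 thus fell by 0.56 on the log2 scale in SW1990, or 1.47-fold (standard error 0.15, adjusted p = 0.0212), and the call was kept in 9 of the 12 fits that left out 1 array, being lost without LIP-1, a or b of SW1990 (adjusted p up to 0.0758). In PANC-1 LATS1 read 8.92, 8.84 and 8.81 in the arrays labelled GLI1 and 9.52, 9.49 and 8.84 in S10, S11 and S8. S10 and S11 lay above all 3 arrays labelled GLI1, while S8 lay among them. With S8 the PANC-1 difference of LATS1 was -0.42 (standard error 0.15, adjusted p = 0.0975), which was not called. With array weights it was -0.625 and was called (adjusted p = 2.157e-05), where 9285 of the 22413 genes were. Without S8 it was -0.65 (standard error 0.06, adjusted p = 7.462e-05). The fit shares 1 estimate of spread between the lines, so leaving out S8 also narrowed the standard error of LATS1 in SW1990, from 0.15 to 0.06. LATS1 was at the same level in both lines within the test, with a difference of 0.03 (adjusted p = 0.825).

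LATS2, the second kinase of the pair, read 8.66, 8.70 and 8.77 in the SW1990 arrays labelled GLI1 and 9.04, 9.01 and 9.12 in a, b and c. These groups did not overlap either, but with the shared spread the SW1990 difference of -0.35 was not called (standard error 0.12, adjusted p = 0.0604). In PANC-1 LATS2 read 8.15, 8.03 and 8.20 in the arrays labelled GLI1 and 8.90, 8.75 and 8.34 in S10, S11 and S8. S8 lay between the other control arrays and the arrays labelled GLI1. LATS2 fell by 0.54 on the log2 scale in PANC-1, or 1.45-fold (standard error 0.12, adjusted p = 0.0180), a call kept in 8 of the 12 fits that left out 1 array and lost without LIP-1, LIP-2, S10 or S11 of PANC-1 (adjusted p up to 0.0750). Without S8 the difference of LATS2 was -0.70 in PANC-1 (adjusted p = 7.462e-05), and the -0.35 in SW1990 was then called as well (adjusted p = 0.00232), where 12.4% of all genes were called lower in SW1990. Of the other fits with 1 array left out, the one without S10 also called LATS2 in SW1990 (adjusted p = 0.0303), as did the fit of that line alone (adjusted p = 0.00438). It was called there too with array weights (adjusted p = 0.00247), by the methods' t-test (adjusted p = 0.0205) and without the dimmest 30% of genes (adjusted p = 0.04715). LATS2 was 0.49 higher in SW1990 than in PANC-1 over both labels (adjusted p = 0.000347).

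**Figure D2:**
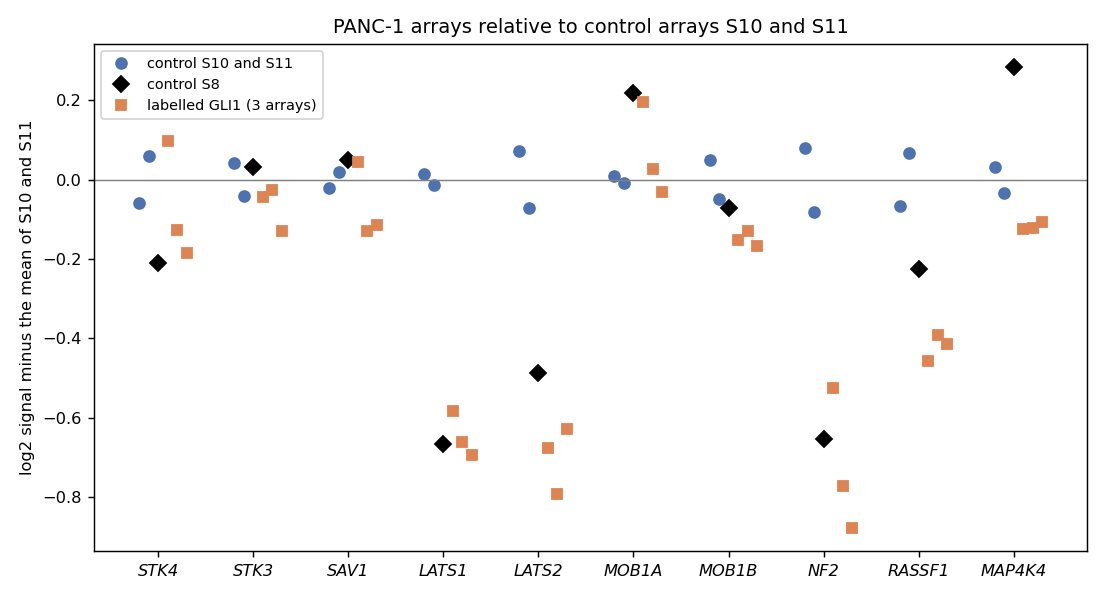
Log2 signal of the 10 genes in the 6 PANC-1 arrays minus the mean of control arrays S10 and S11, with circles for S10 and S11, black diamonds for control array S8 and squares for the 3 arrays labelled GLI1. S8 lies within the range of the arrays labelled GLI1 for LATS1 and NF2 and between them and the other controls for LATS2, MOB1B and RASSF1. For STK4 it lies below all 3 arrays labelled GLI1, and for MAP4K4, MOB1A and SAV1 above the other controls.

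MOB1A and MOB1B bind the LATS kinases and help to activate them, and neither passed the label test in either line. MOB1A read 10.26, 10.22 and 10.17 in the SW1990 arrays labelled GLI1 against 10.20, 10.21 and 10.12 in a, b and c, a difference of 0.04 (95% interval -0.13 to 0.21, adjusted p = 0.796). In PANC-1 MOB1A read 10.49, 10.32 and 10.26 against 10.30, 10.28 and 10.51, a difference of -0.01 (95% interval -0.18 to 0.16, adjusted p = 0.975). S8 was the highest of the 12 arrays for MOB1A. MOB1B read 8.10, 8.14 and 7.99 in the SW1990 arrays labelled GLI1 against 8.07, 8.11 and 8.28, and 7.996, 8.02 and 7.98 in those of PANC-1 against 8.20, 8.10 and 8.08. The PANC-1 groups of MOB1B did not overlap, yet the gap was small, at -0.13 (adjusted p = 0.294), and the SW1990 difference was -0.08 (adjusted p = 0.495). Between the lines MOB1A was lower in SW1990, with a difference of -0.17 (adjusted p = 0.0234), a call kept in 9 of 12 fits with 1 array left out and lost without LIP-2 or c of SW1990 or LIP of PANC-1 (adjusted p up to 0.0533), and MOB1B differed by 0.05 (adjusted p = 0.387).

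NF2 encodes merlin, the membrane-linked tumour suppressor that recruits the LATS kinases. In SW1990 NF2 was almost flat, at 9.23, 9.20 and 9.19 in the arrays labelled GLI1 and 9.13, 9.14 and 9.20 in a, b and c, a difference of 0.05 (adjusted p = 0.890). In PANC-1 NF2 read 10.29, 10.04 and 9.94 in the arrays labelled GLI1 and 10.90, 10.73 and 10.16 in S10, S11 and S8. Again S8 lay among the arrays labelled GLI1 and the other controls above them. The PANC-1 difference of NF2 was -0.51 with S8 (standard error 0.15, adjusted p = 0.0631), not called, and -0.73 without it (standard error 0.09, adjusted p = 0.000271). It was also called without LIP of PANC-1 (-0.61, adjusted p = 0.0496), without the dimmest 30% of genes (-0.51, adjusted p = 0.0458) and with array weights (-0.69, adjusted p = 1.649e-05). Every PANC-1 array lay above every SW1990 array, and NF2 was lower in SW1990 by -1.16 (standard error 0.11, adjusted p = 3.118e-06), or 2.24-fold, the widest line difference of the 10 genes.

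RASSF1, a scaffold that binds the Hippo kinases through its SARAH domain, was the only one of the 10 genes called in both lines. RASSF1 read 7.59, 7.63 and 7.51 in the SW1990 arrays labelled GLI1 and 7.80, 7.83 and 7.76 in a, b and c. It read 7.61, 7.68 and 7.65 in the PANC-1 arrays labelled GLI1 and 7.999, 8.13 and 7.84 in S10, S11 and S8. In neither line did the groups overlap, and S8 was the lowest of the PANC-1 controls. RASSF1 fell by 0.22 in SW1990 (standard error 0.07, adjusted p = 0.0499), or 1.17-fold, on the edge of the threshold, and the call was kept in 2 of the 12 fits with 1 array left out, those without S11 or S8 (adjusted p up to 0.153 in the others). In PANC-1 RASSF1 fell by 0.35 (standard error 0.07, adjusted p = 0.0141), or 1.27-fold, and the call was kept in 10 of 12 such fits, being lost without LIP-2 or S10 (adjusted p up to 0.0548). Without S8 the PANC-1 difference was -0.42 (adjusted p = 0.000587). The probe set reports the gene as a whole, so its isoforms were not told apart. The line difference of RASSF1 was -0.13 (adjusted p = 0.0438), and that call was kept in 2 of 12 fits with 1 array left out, those without LIP-1 of SW1990 or S8 (adjusted p up to 0.0992 in the others).

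MAP4K4, a kinase of the Ste20 family that can phosphorylate LATS1 and LATS2, was the only one of the 10 that rose with the GLI1 label. MAP4K4 read 8.82, 8.85 and 8.79 in the SW1990 arrays labelled GLI1 and 8.49, 8.56 and 8.63 in a, b and c. MAP4K4 was thus 0.26 higher, or 1.197-fold (standard error 0.08, adjusted p = 0.0353), a call kept in 6 of 12 fits with 1 array left out and lost without any 1 of LIP, LIP-1, LIP-2, a or b of SW1990 or LIP-1 of PANC-1 (adjusted p up to 0.134). In PANC-1 the order was the opposite one, with 8.49, 8.49 and 8.504 in the arrays labelled GLI1 and 8.64, 8.58 and 8.89 in S10, S11 and S8. S8 was the highest of all 12 arrays for MAP4K4. The PANC-1 difference was -0.21 (adjusted p = 0.111), and without S8 it was -0.12 (adjusted p = 0.187).

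**Figure D3:**
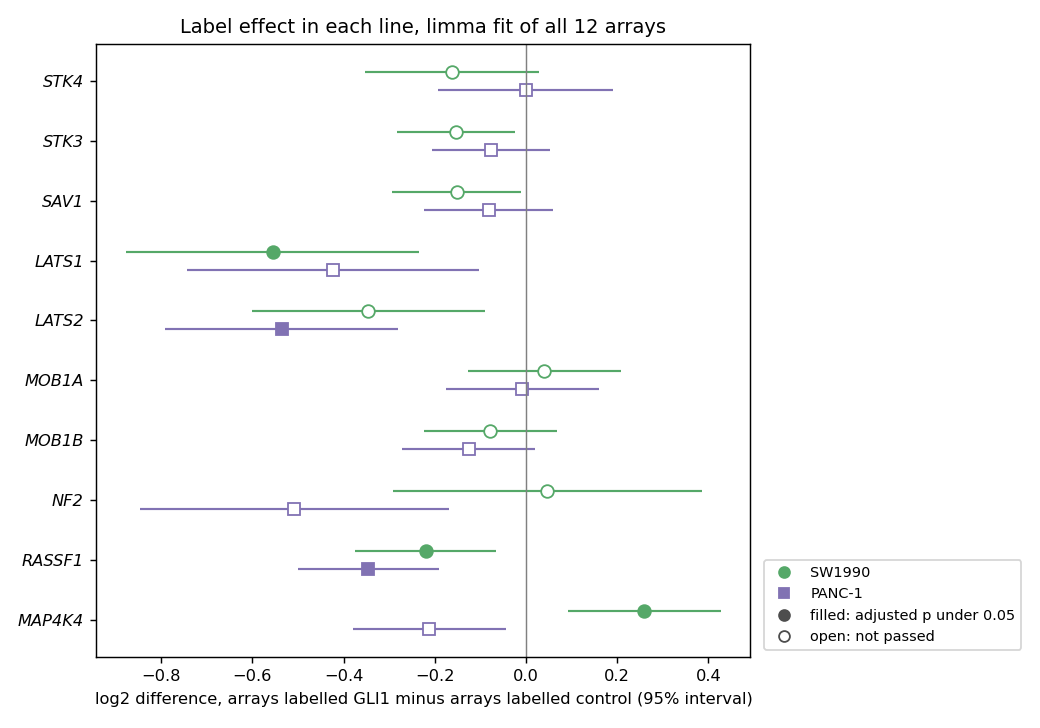
Label effect on each of the 10 genes, as the log2 difference of arrays labelled GLI1 minus arrays labelled control with its 95% interval from limma, with circles for SW1990, squares for PANC-1 and filled symbols for an adjusted p under 0.05. In PANC-1 all 10 point estimates lie at or below 0, and MAP4K4 lies at 0.26 in SW1990 and -0.21 in PANC-1.

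The difference of the label effect between the lines was tested for each gene as PANC-1 minus SW1990. MAP4K4 alone of the 10 passed, at -0.47 (95% interval -0.71 to -0.23, adjusted p = 0.0484), where 2.36% of all genes were called, although NF2 had the wider difference, at -0.55 (95% interval -1.03 to -0.08, adjusted p = 0.227). The call on MAP4K4 was kept in 2 of the 12 fits that left out 1 array, those without S11 or S8, with adjusted p from 0.00833 to 0.129. Without S8 the differences of NF2 (-0.77, adjusted p = 0.00244), LATS2 (-0.35, adjusted p = 0.0304) and MAP4K4 (-0.38, adjusted p = 0.00833) were called, where 15.2% of all genes were. Without S8, 4 of the 10 genes were called lower in PANC-1, LATS1, LATS2, NF2 and RASSF1, where 11.1% of all genes were. What sets S8 apart and its part in these differences was not tested.

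Between the lines, over both labels, 6 of the 10 genes were called. SAV1 and LATS2 were called higher in SW1990, where 26.0% of all genes were, and STK4, MOB1A, NF2 and RASSF1 were called lower, where 23.3% were. STK3, LATS1, MOB1B and MAP4K4 were not called between the lines. In group means, NF2 ran from 9.16 in the SW1990 control arrays and 9.21 in the SW1990 arrays labelled GLI1, neighbours whose difference was not called, to 10.09 and 10.60 in the PANC-1 arrays labelled GLI1 and control, whose difference was not called with all 12 arrays (adjusted p = 0.0631). For LATS2 the order was the PANC-1 arrays labelled GLI1 at 8.13, the PANC-1 controls at 8.66, the SW1990 arrays labelled GLI1 at 8.71 and the SW1990 controls at 9.06. The middle pair of these LATS2 means lay closer together than the SD of the PANC-1 controls, 0.29.

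Correlations over the 12 arrays are given as a description, since the arrays share lines and labels. STK4 ran with NF2 (Pearson r = 0.870) and against SAV1 (r = -0.787), with STK4 and NF2 higher and SAV1 lower in PANC-1. LATS1 ran with RASSF1 (r = 0.776) and with LATS2 (r = 0.702), and SAV1 with LATS2 (r = 0.740) and against NF2 (r = -0.884). Gene profiles over the 12 arrays were also ranked by their correlation with STK4, leaving out names such as LOC, clone, open reading frame, LINC and antisense. The nearest were those of CAMSAP2 (r = 0.973), ANKRD18B (0.973), XPR1 (0.972), BIRC2 (0.970) and CD55 (0.967). The most opposite were ZFP36L1 (r = -0.979), TRIM32 (-0.974), H6PD (-0.973), ARSD (-0.970) and THNSL2 (-0.970).

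RefSeq promoter windows, from 250 bases before to 50 bases after an annotated start on GRCh38.p14, were found for 9 of the 10 genes, 13 windows in all. They are shown for the 3 genes of the cascade that were called lower, LATS1, LATS2 and RASSF1, with capitals for the TEAD core GGAATG on either strand. TEAD factors are the DNA-binding partners of YAP and TAZ. The core stands once in the LATS2 window, 9 bases after the start, and once in the RASSF1 window as its reverse complement, with its first base 86 bases before the start, while 14.0% of all 35116 windows hold it. The RASSF1 window belongs to an internal start of the gene. Neither of the 2 LATS1 windows holds it, and the upstream one is shown. The GLI consensus GACCACCCA (0.236% of all windows) and the core of the interferon response element (3.57%) were in none of the 13, and 11 of the 13 held none of the 3 motifs. The windows have 29 CpG sites for LATS2, 33 for RASSF1 and 38 for the LATS1 window shown, beside a median of 14 over all windows. The LATS1 window that is not shown has 3.
LATS2 (chr13:21061537-21061836, minus strand): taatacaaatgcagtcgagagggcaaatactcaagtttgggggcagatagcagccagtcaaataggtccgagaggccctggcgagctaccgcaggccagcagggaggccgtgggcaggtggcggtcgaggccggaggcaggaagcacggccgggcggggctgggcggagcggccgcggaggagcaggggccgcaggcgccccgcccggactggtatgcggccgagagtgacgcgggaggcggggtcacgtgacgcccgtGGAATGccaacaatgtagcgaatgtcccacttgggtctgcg
RASSF1 (chr3:50337401-50337700, minus strand): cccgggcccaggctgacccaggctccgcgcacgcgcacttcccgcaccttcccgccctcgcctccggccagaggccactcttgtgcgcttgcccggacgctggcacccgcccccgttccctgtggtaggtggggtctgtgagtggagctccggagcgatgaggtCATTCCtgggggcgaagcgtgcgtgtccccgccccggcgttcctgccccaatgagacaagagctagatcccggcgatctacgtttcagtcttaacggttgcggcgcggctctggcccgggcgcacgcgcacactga
LATS1 (chr6:149718052-149718351, minus strand): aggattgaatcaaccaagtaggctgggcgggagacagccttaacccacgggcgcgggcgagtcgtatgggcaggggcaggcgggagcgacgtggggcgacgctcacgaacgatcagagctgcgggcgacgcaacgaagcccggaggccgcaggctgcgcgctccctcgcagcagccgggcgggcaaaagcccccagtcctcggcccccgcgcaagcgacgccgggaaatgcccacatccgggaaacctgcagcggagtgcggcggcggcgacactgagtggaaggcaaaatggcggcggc

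Other Hippo components were read as 6 lists of 48 measured genes in all. With the GLI1 label 11 of the 48 were called lower in SW1990 and 7 in PANC-1, beside 9.39% and 5.24% of all genes, and 3 and 0 were called higher, beside 9.70% and 4.40%. Kinases near the 10 moved singly. STK38L (NDR2), a kinase of the LATS family, read 8.92, 9.10 and 9.01 in the SW1990 arrays labelled GLI1 and 9.52, 9.48 and 9.43 in a, b and c. In PANC-1 STK38L read 9.16, 9.08 and 9.07 against 9.61, 9.49 and 9.52, here with S8 among the controls. STK38L fell by 0.47 in SW1990 (adjusted p = 0.000434) and by 0.43 in PANC-1 (adjusted p = 0.00286). STK38 (NDR1) fell in SW1990, by 0.32 (adjusted p = 0.0374), so that 2 of the 5 germinal centre and NDR kinases were lower in SW1990 and 1 of 5 in PANC-1, beside those 9.39% and 5.24%. Of the 7 MAP4K and TAO kinases measured none was called in SW1990 and 1 in PANC-1, MAP4K5. It fell there by 0.83 (adjusted p = 0.00341). The label effect of MINK1 differed between the lines by 0.41 (adjusted p = 0.0448). This was the only such call among the 48, beside 2.36% of all genes.

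Inhibitors of the kinases had the lowest list median in SW1990, at -0.31, and one of -0.14 in PANC-1, with 5 of 11 and 3 of 11 genes called lower, beside 9.39% and 5.24% of all genes, and none higher. Most of those called are parts of STRIPAK, the phosphatase complex that removes the activating phosphate from STK3 and STK4. The list itself leans to this complex, with STRN, STRN3, STRN4, SLMAP, SIKE1 and FGFR1OP2 among its 11 measured genes. STRN and STRN4 were called in neither line, and SLMAP and SIKE1 were not called in PANC-1. FGFR1OP2 fell by 0.56 in SW1990 (adjusted p = 6.998e-05) and by 0.25 in PANC-1 (adjusted p = 0.0170). STRN3 fell by 0.49 in SW1990 (adjusted p = 0.00133) and by 0.40 in PANC-1 (adjusted p = 0.0110). SIKE1 fell by 0.31 in SW1990 (adjusted p = 0.00767), as did SLMAP, named after its value was seen, by 0.54 (adjusted p = 0.0219). ITCH, a ubiquitin ligase of LATS1, fell by 0.42 in SW1990 (adjusted p = 0.000535), and AJUBA, a LIM protein that binds the LATS kinases, by 0.72 in PANC-1 (adjusted p = 0.0169).

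Among upstream scaffolds 2 of 11 fell in SW1990, PTPN14 by 0.45 (adjusted p = 0.00287) and WWC3 by 0.31 (adjusted p = 0.0340), and 1 of 11 in PANC-1, AMOTL2 by 0.32 (adjusted p = 0.0135), beside the 9.39% and 5.24% of all genes called lower. Of the 7 other RASSF genes RASSF2 fell in both lines, by 0.56 in SW1990 (adjusted p = 0.000711) and by 0.33 in PANC-1 (adjusted p = 0.0259), at signals of 5.65 to 6.46 close to the dim limit. RASSF6 fell by 0.55 (adjusted p = 0.000491), at group means of 4.49 and 5.04 that lay below that limit, and RASSF7 rose by 0.26 (adjusted p = 0.0132), both in SW1990. Of the 7 factors at the end of the cascade YAP1 rose by 0.20 (adjusted p = 0.0132) and TEAD4 by 0.31 (adjusted p = 0.00807) in SW1990, and none was called in PANC-1. In SW1990, 1 of the 7 other RASSF genes and 2 of the 7 factors were thus called higher, beside 9.70% of all genes.

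Of 10 YAP and TAZ target genes, 1 fell in SW1990, where 9.39% of all genes did, and 2 in PANC-1, where 5.24% did, and none rose. ANKRD1, a muscle ankyrin repeat protein and a common reporter of YAP activity, read 5.14, 5.76 and 5.81 in the SW1990 arrays labelled GLI1 against 6.74, 6.68 and 7.21 in a, b and c. Its values in the SW1990 arrays labelled GLI1 lay under the dim limit of 5.96. In PANC-1 ANKRD1 read 9.77, 9.20 and 8.92 against 10.53 to 12.12 in the control arrays, with S8 the lowest of these. The groups were apart in both lines, and S8 was again the control nearest to the arrays labelled GLI1. ANKRD1 fell by 1.31 in SW1990 (adjusted p = 0.0344) and by 2.25 in PANC-1 (adjusted p = 0.00637). NUAK2, an AMPK-related kinase, fell by 0.77 in PANC-1 (adjusted p = 0.00663). CCN1 and CCN2, also targets of the list, were called in neither line. Group means of CCN1 (GLI1 label, then control) were 9.44 and 9.505 in SW1990 and 12.09 and 12.27 in PANC-1. Those of CCN2 were 8.75 and 9.20 in SW1990 and 11.62 for both labels in PANC-1. The list median was 0.03 in SW1990 and -0.19 in PANC-1.

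**Figure D4:**
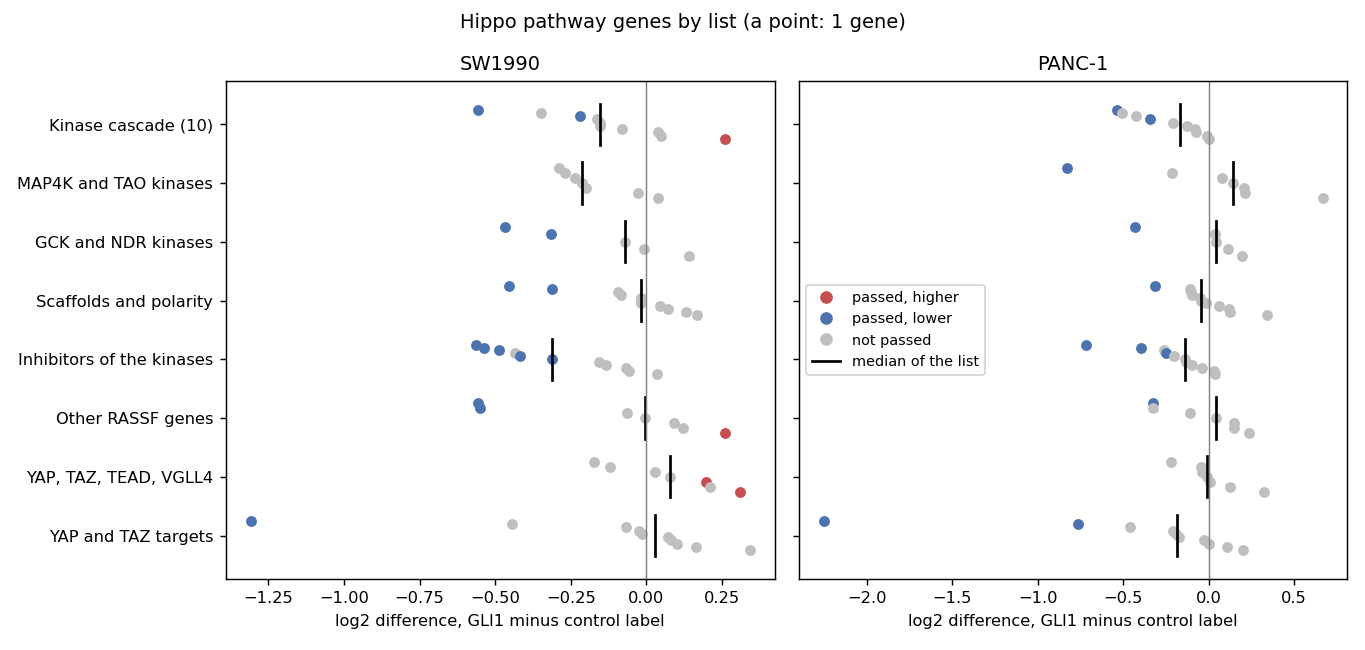
Log2 difference of each Hippo pathway gene, arrays labelled GLI1 minus arrays labelled control, by list and line, with 1 point per gene, red for called higher, blue for called lower, grey for not called and a bar at the median of the list; the horizontal scales of the panels differ. In SW1990 the list of inhibitors has the lowest median, -0.31, and in PANC-1 ANKRD1 at -2.25 is the farthest point.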

How the data were processed

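Total RNA of SW1990 and PANC-1 was measured on 12 Affymetrix Human Transcriptome arrays, 3 per line and label. The authors deposited log2 signals of 70523 probe sets, background corrected and normalized with tools not named in the sources used here. Arrays carry no read depth, and their number limits the precision. Array medians of the deposited log2 values differed by 0.133, so the 67528 transcript clusters were quantile normalized. Genes were named from the platform annotation, updated with RefSeq by Entrez ID (21497 probe sets), symbol (1977) or synonym (306), and 4 stayed as annotated. Left out were 1540 probe sets that name several genes and 45199 that name none, and for the 529 genes with several probe sets the one of highest mean was used.

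Group means were fitted in R 4.3.3 by limma 3.58.1, using lmFit and then eBayes (8 residual degrees of freedom, no covariates), with Benjamini-Hochberg adjustment over 22413 genes. Contrasts were the label effect in each line, the difference of these effects and the mean line difference. Alternatives were other scalings, fits, thresholds, the methods' t-test, other probe set and dim-signal rules, and each array left out. The fit was tested on simulated data. Replicate names are not shared by the groups of a line, so no pairing was used. The genes and lists were chosen with earlier results of these data known, and all 10 genes are named, with up to 4 called genes of each other list and line. Some genes of these lists, MAP4K2, MAP4K3, WWC2, AMOT and SCRIB among them, and the miRNA arrays were not analysed here. Promoters came from RefSeq on GRCh38.p14. Figures were drawn with Python 3.11.15, pandas 2.3.3 and matplotlib 3.10.9.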

Additional observations from a re-analysis of the deposited data

Results flagged for a closer look

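The label effect on MAP4K4 differed between the lines by -0.47 (PANC-1 minus SW1990), and the interaction term of the limma fit passed its threshold (adjusted p = 0.0484). MAP4K4 was higher with the GLI1 label in 3 of 3 SW1990 arrays, taken against all 3 controls, and lower in 3 of 3 PANC-1 arrays. The call was lost on the values as deposited, on arrays centred on their median and with robust limma-trend, and in 10 of the 12 fits that left out 1 array. Control array S8 read 8.89, the highest of the 12 arrays for MAP4K4, and without it the difference was -0.38 (adjusted p = 0.00833). The part of S8 and of the interferon-stimulated genes in this difference was not tested.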

How the results depend on the processing

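Of 876 values of single genes under 23 alternatives, covering 40 results, 748 kept their direction and side of the threshold, 84 were no longer called, 25 became called and 19 changed sign, none of these last called before. Changes of sign were those of MOB1A in PANC-1 (0.004 as deposited, 0.010 centred, 0.029 with array weights, -0.074 to 0.065 with 1 array left out), of STK4 in PANC-1 (-0.085 to 0.064 with 1 array left out), of LATS1 between the lines (-0.007 as deposited, -0.071 centred, -0.066 with weights, -0.079 to 0.092 with 1 array left out) and of the difference of label effects with weights for SAV1 (-0.017), LATS1 (-0.019) and MOB1A (0.009), where leaving out 1 array gave -0.091 to 0.251 for LATS1 and -0.115 to 0.024 for MOB1A.

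In SW1990, where 1 of the 10 genes was higher and 2 lower, there were 1 and 1 on the values as deposited and with robust limma-trend, 0 and 1 on centred arrays, and 0 and 0 at an adjusted p under 0.01, at 2-fold, or with control arrays a and b averaged (an alternative added after seeing the data, since these are the closest pair, with an SD of their difference of 0.0992). In PANC-1, where 2 were lower, there were 0 with the line fitted alone, by the methods' t-test after adjustment, at 0.01 and at 2-fold. With array weights 6 were lower, in a fit that called 9285 of the 22413 genes in either direction. The methods' t-test at an unadjusted p under 0.05 called 5 of the 10 in SW1990 and 3 in PANC-1 (7121 and 3288 of all genes). The difference of label effects was called for 0 of the 10 as deposited, centred, with limma-trend, at 0.01, at 2-fold and with a and b averaged. With weights it was called for 4, beside 6119 of the 22413 genes. Between the lines, 2 were lower at 0.01, and at 2-fold 0 were higher and 1 lower.

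Over all genes, 4278 calls in SW1990 became 7722 with weights, 2242 at 0.01, 223 at 2-fold and 2765 with a and b averaged. In PANC-1 2161 became 30 with the line alone, 0 by the adjusted t-test, 9285 with weights, 512 at 0.01 and 113 at 2-fold. The 529 calls of the difference became 261 centred, 6119 with weights, 109 at 0.01, 105 at 2-fold and 232 with a and b averaged, and the 11043 between lines 1682 at 2-fold. As deposited, 63.5% of the SW1990 calls were higher, against 50.8% here. Of other Hippo genes, 3 higher in SW1990 became 6 with weights, 1 at 0.01 and 0 at 2-fold, and 11 lower became 18 with the line alone, 17 by the adjusted t-test and 0 at 2-fold. In PANC-1 0 higher became 12 with weights and 1 without the dimmest 30% of genes, and 7 lower became 0 with the line alone, by the adjusted t-test and at 2-fold, 20 with weights and 2 at 0.01.

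STK3 lies among the dimmest 30% of genes, so the filter on dim genes gave no value for it, and fits within a line gave none between the lines. With 1 array left out, SW1990 gave 0 to 1 of the 10 higher, 0 to 3 lower, 8 to 17 other Hippo genes lower and 2757 to 5633 calls in all. PANC-1 gave 0 to 4 of the 10 lower (0 without LIP-2 or S10, 1 without LIP-1 or S11, 4 without S8), 0 to 9 other Hippo genes higher, 2 to 13 lower and 703 to 5437 calls. The difference of effects gave 0 to 3 of the 10 and 226 to 3399 calls, and the line 2 to 4 of the 10 lower.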
